A study of Mus musculus with 24 samples.

Results

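Gene expression was compared between bone marrow-derived macrophages (BMDMs) given conditioned medium (CM) from KEAP1 KO LL2 cells and BMDMs given CM from WT LL2 cells, with vehicle in both. The comparison holds 6 of the 24 libraries of the series, 3 for each medium, picked by their labels, and libraries with the same number (1, 3 and 4 in the library names, called replicates 1 to 3 here) were paired. LL2 (Lewis lung carcinoma) is a mouse lung carcinoma line of C57BL/6 origin, and the KEAP1 KO cancer cells carry a knockout of Keap1 that the macrophages do not. The macrophages were grown from C57BL/6 bone marrow with 20 ng/mL M-CSF, then kept for 24 h in 75% CM and 25% fresh medium. The CM had been on the cancer cells for 48 h. The other groups, used only where stated, received medium without cancer cells (media), CM from NRF2 KO LL2 cells, or any of the 4 media with 100 nM of the triterpenoid CDDO-Me. The labels call the 3 samples of a group independent and do not say whether they came from separate mice. The p-values of the paired fit set each difference between media against its spread from pair to pair. That spread was drawn by limma toward a trend over genes of like level (2 residual and 3.464 prior degrees of freedom). Whether the spread between pairs is one between mice is not known. The KEAP1 KO libraries share a single library code (K3F10), and whether it names 1 clone is not stated in the sources used here.

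KEAP1 is the adaptor through which cells send the transcription factor NRF2 for degradation, and cancer cells that lose KEAP1 hold NRF2 and its antioxidant and metabolic target genes at a high level. Macrophages do not share that mutation and meet it only through what the cancer cells release into, or take up from, the medium. Macrophages in tumors take part in matrix remodeling, vessel growth, the recruitment of monocytes and neutrophils, lipid handling and the presentation of antigen on MHC molecules, and the gene groups below follow those roles.

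Cultures in KEAP1 KO CM had higher levels of Timp1 and Spp1, of 4 cytokine and chemokine genes (Il1rn, Cxcl5, Ccl2, Csf1), of Il1rl1 and of 3 mitotic genes than cultures in WT CM, and lower levels of 3 MHC class II genes (H2-Ab1, H2-Eb1, Cd74), Cd36 and Mmp12. Fibroblast and stromal marker genes moved with them, and 9 were called higher. Their median log2 difference of 0.46 was the highest of the 18 lists plotted for this comparison. The summed level of the cell cycle genes had the same replicate order as theirs, as had the sums of several other lists. Levels were given as TPM, a transcript abundance per length that sums to the same total in each library, and differences as log2 of KEAP1 KO CM over WT CM, fitted by limma on log2(scaled TPM + 1) with the replicate number as a block, a scale that understates the change of low genes. Of 12330 genes tested, 50 (0.406%) passed a Benjamini-Hochberg adjusted p of 0.05 and are called here. Of these, 38 (0.308%) were higher and 12 (0.0973%) lower in KEAP1 KO/vehicle BMDMs. Without the replicate block 0 genes were called by limma, while 790 had an unadjusted p under 0.05. With TPM not scaled between libraries the split was 169 higher and 19 lower. The calls lay close to the threshold, with adjusted p from 0.041 to 0.049, and a further 134 genes had an adjusted p from 0.05 to 0.06.

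At an unadjusted p under 0.05, 1209 genes (9.81%) were higher and 1000 genes (8.11%) were lower. The scaled TPM of the groups did not overlap in 789 genes (6.4%) that were higher and 740 genes (6.0%) that were lower, while of the called genes 14 of 38 and 6 of 12 did not overlap. For single genes and sums below, overlap is read from the deposited TPM, which are not scaled between libraries. Differences were small: the median absolute log2 difference was 0.58 among called genes and 0.093 among all genes tested, and 5 called genes differed by at least 1. In 47 of 50 called genes the mean was at least 10 TPM in both groups. All 50 called genes had the same direction in each of the 3 pairs, which the fit favors, and 5061 (41%) of all tested genes did. The median log2 difference of all tested genes was -0.0014.

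**Figure D1:**
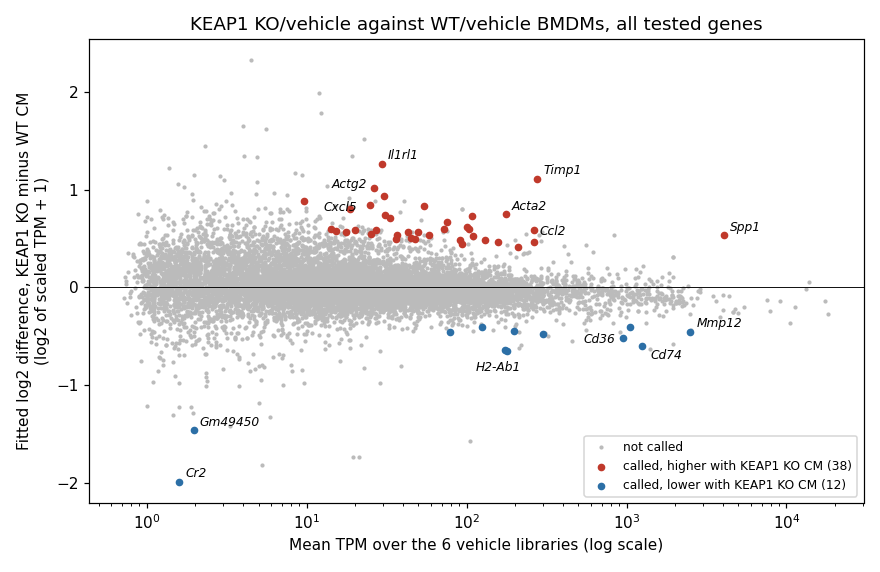
Fitted log2 difference of vehicle BMDMs in KEAP1 KO CM from those in WT CM (y axis) against mean TPM over the 6 libraries (x axis, log scale) for 12330 tested genes, with 38 genes called higher in red, 12 called lower in blue and the rest in grey. Most called genes lie within 1 on the log2 scale, and Timp1, Spp1, Cd74, Cd36 and Mmp12 are among the abundant ones.

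The 6 libraries each listed 17880 to 18543 genes above 0. TPM do not keep the read depth of each library, for which the methods state an average only. Replicate 3 of NRF2 KO CM, used below for context only, stood apart, with 15702 genes above 0 against 18341 and 18625 in the other libraries of its group, so NRF2 KO CM is given by library where a single gene is described. The macrophage label was checked against marker genes: Lyz2 lay between 12850 and 16130 TPM, Csf1r (the M-CSF receptor) between 760.2 and 1098 and Adgre1 (F4/80) between 757 and 929 in the 6 libraries. Among 19 tested macrophage identity genes 0 were called, 0 had an unadjusted p under 0.05 upward and 6 downward, with a median log2 difference of -0.11. Their summed level was 32660, 29400 and 34230 TPM in KEAP1 KO CM and 32690, 30970 and 31020 TPM in WT CM. Markers of fibroblasts and other stromal cells were present in every library and moved with the comparison, as described below. In RNA from a whole culture, more cells of a type and more RNA per cell cannot be told apart.

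Timp1 (chromosome X:20736316-20740976, GRCm39), an inhibitor of matrix metalloproteases, measured 427, 407 and 317 TPM in KEAP1 KO CM replicates 1, 2 and 3 and 178, 196 and 136 TPM in WT CM. All 3 KEAP1 KO libraries lay above all WT libraries, a 2.26-fold difference of means (384 ± 58.8 against 169.9 ± 30.6 TPM, SD, n = 3), and Timp1 rose by 1.11 on the log2 scale (SE 0.059, limma adjusted p = 0.041). Spp1 (chromosome 5:104582165-104589235), which encodes the secreted phosphoprotein osteopontin, was the most abundant called gene, at 4920.0, 5965 and 3736 TPM against 3279, 3914 and 2471 TPM, and rose by 0.53 (SE 0.043, limma adjusted p = 0.042). The Spp1 ranges overlapped because replicate 3 was low in both media, while each KEAP1 KO library lay above the WT library of its number.

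Within the list of matrix protease and inhibitor genes, 22 of 24 were tested, 2 rose, Timp1 among them, Mmp12 fell, and the median difference was -0.0075. Mmp14, a membrane-bound protease, stood at 73.6, 84.1 and 48.0 TPM against 45.6, 67.8 and 33.8 TPM, with a log2 difference of 0.43 that did not pass (limma adjusted p = 0.093). Mmp12, macrophage elastase, measured 1857, 2202 and 2423 TPM in KEAP1 KO CM and 2507, 2690 and 3302 TPM in WT CM, without overlap, and fell by 0.45 (SE 0.047, limma adjusted p = 0.044). The list thus held members that moved both ways. In the angiogenesis list 33 of 36 genes were tested, with 3 called higher (Timp1 and Spp1, which also sit in other lists, among them), 0 called lower and a median of 0.17. At an unadjusted p under 0.05, 14 of its genes were higher and 4 lower. Col5a2, a fibrillar collagen chain, had a log2 difference of 0.48 (limma adjusted p = 0.063) and Hif1a, the oxygen-regulated transcription factor subunit, 0.28 (limma adjusted p = 0.067). Vegfa itself measured 84.9, 89.3 and 79.9 TPM against 91.0, 67.6 and 61.9 TPM, and the ranges overlapped. Slco2a1, a prostaglandin transporter, rose by 0.88, from 6.31 ± 1.45 to 12.9 ± 2.18 TPM (SD, n = 3).

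**Figure D2:**
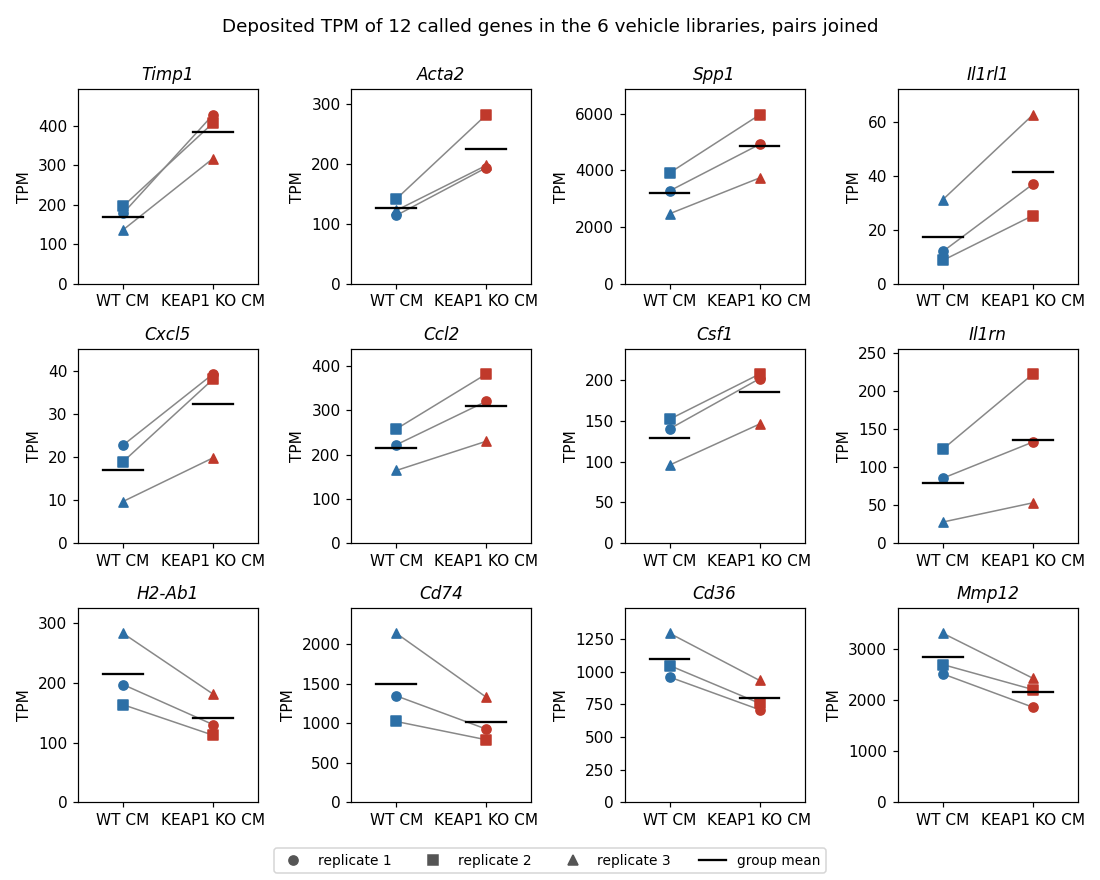
Deposited TPM (y axis, from 0) of 12 called genes in the WT CM (blue) and KEAP1 KO CM (red) vehicle libraries, with marker shape for the replicate, grey lines joining libraries of the same number and black bars for group means. In each gene all 3 lines run the same way, up for Timp1 to Il1rn and down for H2-Ab1 to Mmp12, and replicate 3 is lowest in both media for Spp1, Cxcl5, Ccl2, Csf1 and Il1rn.

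Genes of cytokine and chemokine signaling rose in part. Il1rl1 (chromosome 1:40468730-40504575), the receptor ST2 for IL-33, had the largest rise of the called genes on the log2 scale: 36.9, 25.3 and 62.6 TPM in KEAP1 KO CM against 11.97, 8.66 and 31.2 TPM in WT CM, a log2 difference of 1.26 (SE 0.12, limma adjusted p = 0.044). Each KEAP1 KO library was above the WT library of its number, but replicate 3 was high in both media and the ranges overlapped. Cxcl5 (chromosome 5:90907186-90909483), a neutrophil-attracting chemokine, measured 39.3, 38.1 and 19.8 TPM against 22.8, 18.9 and 9.65 TPM and rose by 0.84 (SE 0.068, limma adjusted p = 0.042). Il1rn, the secreted IL-1 receptor antagonist, measured 133, 223 and 52.9 TPM against 85.4, 124 and 27.6 TPM and rose by 0.73. For Cxcl5 and Il1rn the spread between replicate numbers within each medium exceeded the difference between media on the log2 scale.

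Ccl2, which attracts monocytes, measured 320.5, 382 and 230.1 TPM in KEAP1 KO CM and 222, 258 and 164 TPM in WT CM, and rose by 0.46 (SE 0.039, limma adjusted p = 0.043). Csf1, the gene of M-CSF itself, a factor the cultures were also given, measured 202, 207 and 146 TPM against 140.1, 152 and 95.6 TPM and rose by 0.46 (SE 0.052, limma adjusted p = 0.048). These 4 (Cxcl5, Il1rn, Ccl2 and Csf1) were the called members of the inflammatory cytokine and chemokine list, of which 24 of 36 genes were tested, with a median of 0.26, 8 genes higher and 1 lower at an unadjusted p under 0.05. The neighboring chemokine Ccl7 stood at 530.2, 586 and 347 TPM against 399, 461 and 249 TPM, with a log2 difference of 0.35 (limma adjusted p = 0.057). Classical inflammatory cytokines were scarce in both media: Il6 did not exceed 0.59 TPM, Il1b lay between 0.25 and 2.31 TPM and Tnf between 2.94 and 4.07 TPM. Cxcl3 was under the level needed for a test and was picked after its values were seen: 2.30, 1.54 and 0.85 TPM in KEAP1 KO CM and 0.49, 0.17 and 0.12 TPM in WT CM.

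Stromal marker genes made up 9 of the 38 genes called higher. These were Acta2, Tagln, Tpm2 and Cald1, which encode proteins of the contractile cytoskeleton, Col6a1 and Col6a3, chains of collagen VI, the collagen cross-linking enzyme Lox, and the secreted proteins Fstl1 and Ccn2. Acta2 (smooth muscle actin) measured 194, 283 and 198 TPM against 114, 142 and 123 TPM, without overlap, and rose by 0.75 (SE 0.062, limma adjusted p = 0.043). Of the 34 genes in the list 28 had an unadjusted p under 0.05 upward and 0 downward, against 9.81% and 8.11% of all genes, and the median was 0.46. Col1a1 stood at 343, 424.5 and 251 TPM against 199, 314 and 167 TPM (log2 difference 0.54, limma adjusted p = 0.059), while Fn1, Dcn and Lum differed by 0.057, 0.066 and 0.038.

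The summed level of the stromal list was 5362, 6786 and 3439 TPM in KEAP1 KO CM replicates 1, 2 and 3 and 3614, 5082 and 2407 TPM in WT CM, a ratio of 1.48, 1.33 and 1.43 in the 3 pairs. Replicate 2 was highest and replicate 3 lowest in each medium, so the libraries of 1 medium spanned more than the difference between media within a pair. In media the sums were 6037, 6850 and 4094 TPM for replicates 1, 2 and 3, each above the KEAP1 KO and WT libraries of its number. In NRF2 KO CM they were 5236, 9716 and, in the replicate 3 that stood apart, 4261 TPM. There replicate 1 lay below the KEAP1 KO library of its number and the others above theirs, and all lay above WT CM in this way. Defining fibroblast markers were low but not absent: Pdgfra measured 29.3, 37.4 and 15.97 TPM against 23.6, 27.2 and 10.99 TPM, Dcn 18.3 to 39.1 TPM and Thy1 3.12 to 5.19 TPM over the 6 libraries. Part of the other called genes are also known from stromal cells, among them Actg2, Fbln2, Aebp1, Sfrp1 and Sfrp2. Actg2 (enteric smooth muscle actin) rose by 1.02, Sfrp2 and Sfrp1 (secreted Wnt inhibitors) by 0.83 and 0.60, Fbln2 (a matrix glycoprotein) by 0.74 and Aebp1 by 0.62. Actin transcripts are alike in sequence, so reads of Acta2 and Actg2 may be split between them. The part of the stromal signal in the rises of Timp1, Spp1, Csf1, Ccl2, Cxcl5 and the cell cycle genes was not tested.

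**Figure D3:**
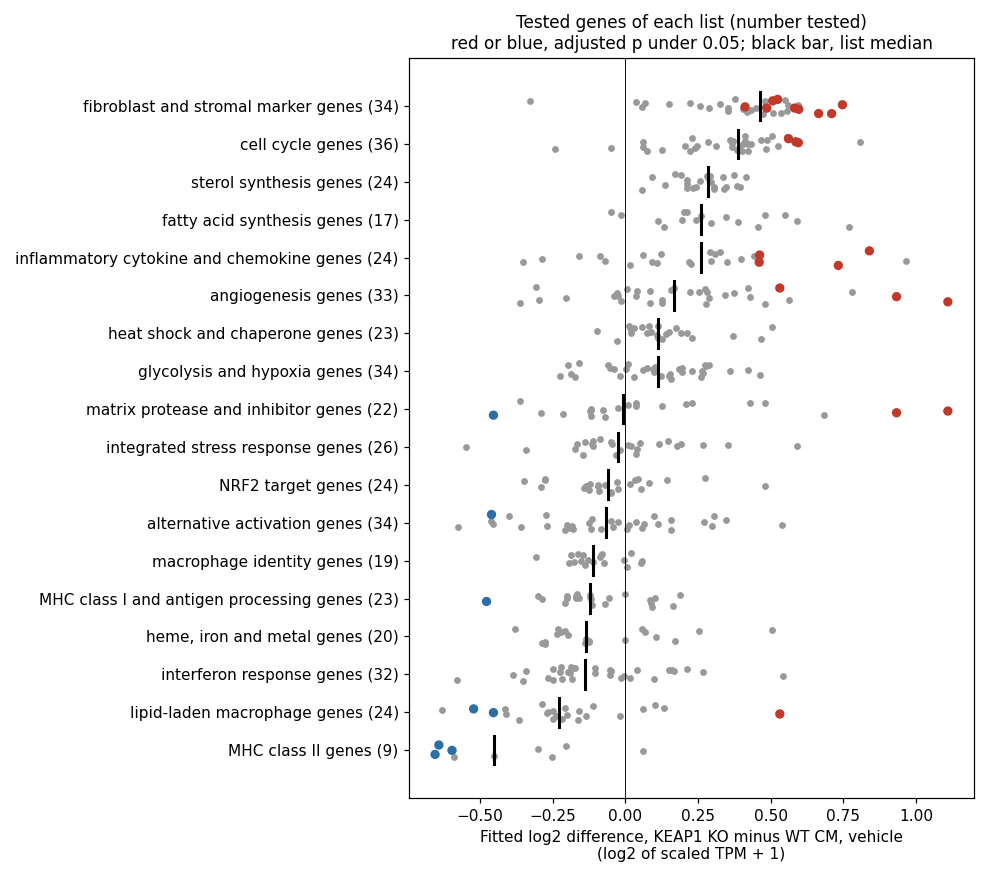
Fitted log2 difference of vehicle BMDMs in KEAP1 KO CM from those in WT CM (x axis) for the tested genes of 18 gene lists (rows, with the number tested), called genes in red (higher) or blue (lower), other genes in grey and the list median as a black bar. Medians run from 0.46 for stromal markers and 0.39 for the cell cycle to -0.45 for MHC class II, and called genes sit in 9 of the lists.

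Cell cycle genes were higher as a group. Of 36 tested, 3 rose and 0 fell, 29 were higher and 1 lower at an unadjusted p under 0.05, and the median was 0.39. The called members act in mitosis: Cdc20, an activator of the anaphase-promoting complex, Ube2c, the ubiquitin-conjugating enzyme of that complex, and the kinase Plk1. Cdc20 measured 22.6, 29.3 and 22.1 TPM against 14.0, 17.9 and 14.2 TPM and rose by 0.59. Plk1 measured 16.8, 21.0 and 14.7 TPM against 10.6, 12.7 and 8.92 TPM and rose by 0.60, and neither gene's groups overlapped. Ube2c measured 54.9, 61.3 and 40.5 TPM against 36.1, 41.7 and 23.9 TPM and rose by 0.56. In S phase genes the differences were of like sign, as for Ccne2 (cyclin E2, 0.81, limma adjusted p = 0.051), Mcm5 (0.39, limma adjusted p = 0.063) and Tyms (0.47, limma adjusted p = 0.066). Pcna, a replication clamp, went the other way, at 360.0, 398 and 307 TPM against 388, 390.5 and 422 TPM (log2 difference -0.24, limma adjusted p = 0.26). The summed level of the list was 1856, 2145 and 1483 TPM in KEAP1 KO CM and 1609, 1764 and 1328 TPM in WT CM, and the order of the replicates was the same as for the stromal sum. That order was not particular to them. The sums for glycolysis and hypoxia, fatty acid synthesis, the integrated stress response, heat shock, inflammatory cytokines and angiogenesis had it in both media. Those for macrophage identity and MHC class II did not.

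The promoters of these 3 mitotic genes are shown because CCAAT boxes, the sites of the factor NF-Y, are a known feature of mitotic promoters, and the promoter of H2-Eb1 is shown beside them because NF-Y also binds the Y box of MHC class II promoters. Each line gives the 250 bases before the annotated start in the RefSeq table (GRCm38.p6), 5′ to 3′ on the strand of the gene, with CCAAT or its complement ATTGG in capitals. Matches on both strands were counted, and neighboring matches may overlap.
Cdc20 (chr4:118437344-118437593, minus strand): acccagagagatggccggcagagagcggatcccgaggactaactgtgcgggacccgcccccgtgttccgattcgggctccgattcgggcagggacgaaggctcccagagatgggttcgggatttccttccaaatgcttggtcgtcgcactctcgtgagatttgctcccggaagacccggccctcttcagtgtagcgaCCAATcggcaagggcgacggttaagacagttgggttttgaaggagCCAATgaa
Plk1 (chr7:122159185-122159434, plus strand): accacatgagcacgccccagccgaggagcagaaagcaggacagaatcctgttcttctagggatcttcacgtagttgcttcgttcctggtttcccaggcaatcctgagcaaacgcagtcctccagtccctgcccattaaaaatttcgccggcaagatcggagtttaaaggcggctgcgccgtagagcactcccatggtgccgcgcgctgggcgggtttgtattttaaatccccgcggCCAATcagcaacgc
Ube2c (chr2:164769679-164769928, plus strand): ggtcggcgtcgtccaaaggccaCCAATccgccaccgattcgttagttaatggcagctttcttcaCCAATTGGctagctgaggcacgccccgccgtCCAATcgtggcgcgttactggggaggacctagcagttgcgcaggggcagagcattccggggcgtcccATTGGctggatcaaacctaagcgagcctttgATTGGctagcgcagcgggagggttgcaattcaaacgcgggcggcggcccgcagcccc
H2-Eb1 (chr17:34305617-34305866, plus strand): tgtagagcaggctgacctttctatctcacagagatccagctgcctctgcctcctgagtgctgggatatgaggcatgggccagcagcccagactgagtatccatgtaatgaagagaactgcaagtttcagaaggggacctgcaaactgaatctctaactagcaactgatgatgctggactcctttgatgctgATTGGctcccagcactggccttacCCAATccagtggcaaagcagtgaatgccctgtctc
Cdc20 held 2 matches, Plk1 1, Ube2c 6 and H2-Eb1 2. Of 27025 genes in the table, 37.5% held a match in at least 1 promoter, as did 22 of the 30 cell cycle genes and 16 of the 32 called genes that the table covers. A match is a description of the sequence and not a bound site.

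Genes of sterol synthesis were higher without passing the test singly. All 24 tested genes had a positive difference, 19 had an unadjusted p under 0.05, 0 were called, and the median was 0.28. Acat2, which makes acetoacetyl-CoA at the entry of the pathway, measured 58.1, 65.7 and 45.9 TPM against 43.5, 44.8 and 34.7 TPM (log2 difference 0.39, limma adjusted p = 0.055). Fdps and Fdft1, at the branch toward squalene, differed by 0.35 and 0.37 (limma adjusted p = 0.059 for both). The summed level of the list was 1803, 1935 and 1706 TPM against 1422, 1431 and 1480 TPM, also without overlap, and was between 889.7 and 953 TPM in media and 1037, 1149 and 939 TPM in NRF2 KO CM. Its replicate order was that of the stromal sum in KEAP1 KO CM but not in WT CM, where replicate 3 was highest, and the part of the stromal signal in this result was not tested.

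Fatty acid synthesis followed with 17 tested genes, 15 of them positive, 13 with an unadjusted p under 0.05 upward, 0 called and a median of 0.26. Fasn, the fatty acid synthase, measured 64.3, 74.4 and 49.6 TPM against 45.7, 51.9 and 38.4 TPM (log2 difference 0.39, limma adjusted p = 0.055). Scd1 and Scd2, stearoyl-CoA desaturases, differed by 0.77 and 0.55 (limma adjusted p = 0.063 and 0.084). Me1, malic enzyme and a source of NADPH, differed by 0.48 (limma adjusted p = 0.059). Srebf1, the gene of the lipogenic transcription factor, measured 80.5, 82.4 and 82.7 TPM against 66.5, 67.3 and 68.6 TPM, without overlap between media (it was not called). Glycolysis and hypoxia genes had 0 calls of 34 tested, 14 higher and 4 lower at an unadjusted p under 0.05 and a median of 0.11. Within them Mif measured 722, 814.5 and 594 TPM against 546, 575 and 460.0 TPM (0.36, limma adjusted p = 0.051), and Slc16a3, a lactate exporter, differed by 0.42 (limma adjusted p = 0.056).

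MHC class II genes were lower in KEAP1 KO CM. H2-Ab1 (chromosome 17:34476663-34488393), the beta chain of I-A, measured 130.3, 113 and 182 TPM against 198, 164 and 283 TPM and fell by 0.65 on the log2 scale (SE 0.041, limma adjusted p = 0.041). H2-Eb1 (chromosome 17:34504236-34535648), the beta chain of I-E, measured 122, 109.8 and 182 TPM against 183, 158 and 282 TPM and fell by 0.64 (SE 0.041, limma adjusted p = 0.041). Cd74, the invariant chain that escorts class II molecules, measured 924, 789 and 1327 TPM against 1344, 1020.0 and 2135 TPM and fell by 0.60 (SE 0.063, limma adjusted p = 0.044). In all 3 genes replicate 3 was highest in both media, the ranges overlapped, and each KEAP1 KO library was below the WT library of its number. H2-Aa, the alpha chain of I-A, stood at 153, 140.1 and 233 TPM against 221.5, 176 and 384 TPM (log2 difference -0.59, limma adjusted p = 0.051).

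The list of MHC class II genes had 9 of 12 members tested, 3 called lower and 0 higher, 8 lower at an unadjusted p under 0.05 and a median of -0.45. Ciita, the class II transactivator, stood at 3.70, 3.98 and 5.32 TPM against 4.67, 4.54 and 9.74 TPM (-0.45, limma adjusted p = 0.20). Cathepsin S (Ctss) supplied most of the summed level of the list, at 4642 to 5576 TPM against 5217 to 6410 TPM. The models of H2-Eb1 and H2-Aa overlap by 2563 bases on opposite strands in the GENCODE annotation, and whether the quantification used strand is not given in the sources used here. Dendritic cell markers moved alongside: all 4 tested genes were negative, 3 at an unadjusted p under 0.05, with summed levels of 324, 363 and 299 TPM against 387, 438 and 494 TPM, while Flt3, a defining gene of that lineage, did not exceed 0.057 TPM and Zbtb46 did not exceed 1.03 TPM. The integrin gene Itgax, also made by macrophages, led that sum, at 269.9, 299 and 247.5 TPM against 324, 375 and 409 TPM. The part of dendritic cells in the class II result was not tested.

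MHC class I and antigen processing genes had 1 call lower among 23 tested, 10 lower and 0 higher at an unadjusted p under 0.05, and a median of -0.12. The called gene, H2-T23 (Qa-1, a non-classical class I molecule), measured 254, 229 and 286 TPM against 326, 301 and 404 TPM and fell by 0.48 (SE 0.046, limma adjusted p = 0.044). H2-T23 has close relatives such as H2-T22, so its reads may be shared, and H2-T22 stood at 57.4, 56.4 and 58.3 TPM against 61.5, 62.0 and 66.0 TPM (-0.20, limma adjusted p = 0.12). B2m, the class I light chain, measured 3621, 3264 and 3747 TPM against 4220.0, 3766 and 4552 TPM (-0.30, limma adjusted p = 0.059). Interferon response genes had 0 calls of 32 tested, 8 lower and 1 higher at an unadjusted p under 0.05 and a median of -0.14. Usp18, which removes the ubiquitin-like ISG15, differed by 0.54 (limma adjusted p = 0.14), against the sign of the median.

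**Figure D4:**
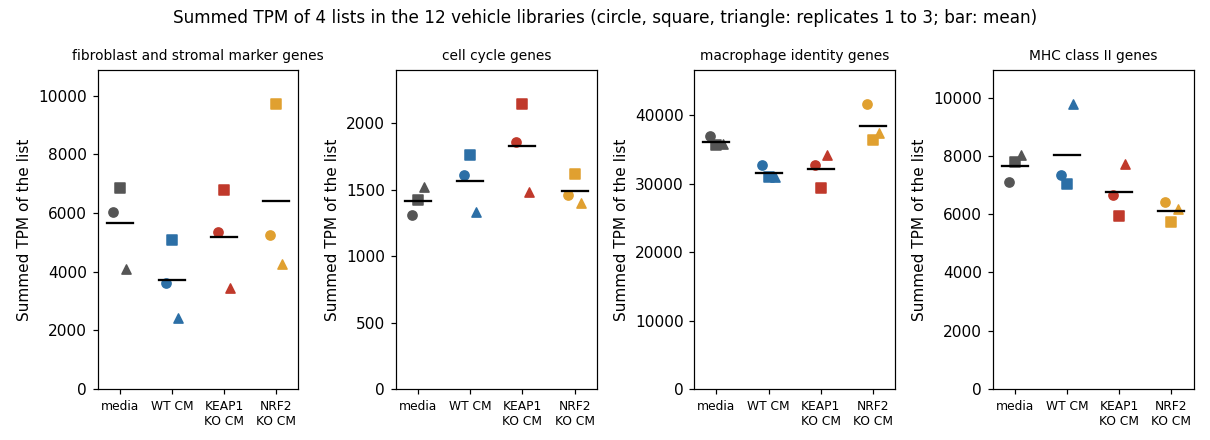
Summed TPM (y axis, from 0) of 4 gene lists in the 12 vehicle libraries, by medium (x axis), with marker shape for the replicate and a black bar for the group mean. The stromal and cell cycle sums are lower in WT CM than in KEAP1 KO CM in each pair, the macrophage identity sums overlap between them, and the MHC class II sums are lower in KEAP1 KO CM in each pair.

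Genes of lipid-laden macrophages were mostly lower. Of 24 tested, Cd36 and Mmp12 fell, Spp1 rose, 17 were lower and 1 higher at an unadjusted p under 0.05, and the median was -0.23. Cd36 (chromosome 5:17986432-18094067), a scavenger receptor that takes up oxidized lipoproteins and fatty acids, measured 708.5, 758 and 933 TPM against 959, 1047 and 1294 TPM and fell by 0.52 (SE 0.040, limma adjusted p = 0.042). Its groups did not overlap. Plin2, which coats lipid droplets, stood at 778, 840.3 and 593 TPM against 922, 1050.0 and 752 TPM (-0.37, limma adjusted p = 0.051). Lpl, the lipoprotein lipase, measured 1198, 1393 and 851 TPM against 1607, 1695 and 1694 TPM, a difference of -0.63 with a larger error (SE 0.13, limma adjusted p = 0.10). Trem2, Gpnmb and Atp6v0d2 differed by -0.25, -0.27 and -0.25, and Apoe by -0.017.

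Alternative activation genes had a higher summed level in both CM (9640 to 11940 TPM) than in media (2438 to 2647 TPM). Between the CM 1 of 34 tested genes was called, beside 0.406% of all tested genes. Arg1, arginase 1, measured 947, 936 and 1121 TPM in KEAP1 KO CM and 681, 765 and 544 TPM in WT CM, against 0.17 ± 0.11 TPM in media (SD, n = 3). The KEAP1 KO and WT groups did not overlap, and the log2 difference of 0.54 did not pass (SE 0.15, limma adjusted p = 0.15). Retnla, a resistin-like secreted protein, stood at 1504, 1390.0 and 1883 TPM against 1990.0, 1753 and 3262 TPM (-0.57, limma adjusted p = 0.063) and was listed at 0 in all 3 media libraries. Chil3 and Mrc1 had log2 differences of -0.027 and -0.048. The single call in the list of 34 tested genes was Matk, a kinase that restrains Src family kinases, which measured 60.6, 57.0 and 84.3 TPM against 77.2, 75.6 and 115 TPM and fell by 0.46 (limma adjusted p = 0.044). At an unadjusted p under 0.05, 5 of the genes were higher and 7 lower, beside 9.81% and 8.11% of all tested genes, and the median was -0.066.

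In the macrophages Keap1 itself was not lower with KEAP1 KO CM: it measured 39.5, 41.0 and 39.5 TPM against 38.6, 36.1 and 38.1 TPM, a log2 difference of 0.025 (SE 0.053). Nfe2l2, which encodes NRF2, measured 186, 173 and 169 TPM against 191, 182 and 173 TPM, a log2 difference of -0.11 (limma adjusted p = 0.24). NRF2 target genes had 0 calls of 24 tested, with 2 higher and 7 lower at an unadjusted p under 0.05 and a median of -0.059. Nqo1 lay between 2.45 and 5.16 TPM in the 6 libraries and Hmox1 measured 335.5, 345 and 313 TPM against 350.4, 370 and 318 TPM. Prdx1, a peroxidase of that group, stood at 1469, 1655 and 1541 TPM against 1803, 1841 and 1804 TPM without overlap (-0.29, limma adjusted p = 0.059), and Fth1, the ferritin heavy chain, differed by -0.28 (limma adjusted p = 0.093). Among 20 tested genes of heme, iron and metals 0 were called, 3 were higher and 9 lower at an unadjusted p under 0.05, and the metallothionein Mt2 measured 133, 152 and 106 TPM against 89.3, 111 and 65.7 TPM (0.51, limma adjusted p = 0.051). The 26 tested genes of the integrated stress response had 0 calls and a median of -0.026, with Atf3 at -0.55 and Ddit4 at 0.59 (limma adjusted p = 0.095 and 0.076). The 23 heat shock and chaperone genes had 0 calls, 7 higher and 0 lower at an unadjusted p under 0.05 and a median of 0.11.

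Of the called genes outside the lists, Dpep2, a membrane dipeptidase, fell by 0.45, Cd52, a small surface glycoprotein of leukocytes, by 0.41 and Cdk18, a cyclin-dependent kinase, by 0.40 on the log2 scale. Cdk18 had the least spread, at 113, 113 and 107 TPM against 144, 143 and 134.5 TPM. Of those that rose, Plpp1 (a lipid phosphatase) gained 0.80, Npy (neuropeptide Y) 0.49, Bmp1 (a protease that processes procollagen) 0.54, Fkbp10 (a collagen chaperone) 0.56, Srpx2 0.54, Ryk (a Wnt receptor) 0.54, Cpe 0.49, Nedd4 (a ubiquitin ligase) 0.44 and Ehd2, Epb41l3, Parva and Cnn3, which act at the membrane and cytoskeleton, 0.59, 0.58, 0.57 and 0.49. From the stromal list, Lox, Tagln, Ccn2, Fstl1 and Col6a1 gained 0.58, 0.52, 0.51, 0.49 and 0.41.

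Cr2 and Gm49450 had the largest falls, both at low level. All their KEAP1 KO values were under 1 TPM, so they passed the filter only through the WT libraries. Entry to the test thus already required a high level in WT CM, and their calls are to be read with that limit. Cr2, the complement receptor CD21, measured 0.061, 0.0083 and 0.042 TPM in KEAP1 KO CM and 4.58, 2.46 and 2.43 TPM in WT CM, and fell by 1.99 (SE 0.20, limma adjusted p = 0.044). Outside the comparison it stood at 1.13 ± 1.87 TPM in media (SD, n = 3) and at 2.65, 0 and, in the replicate 3 that stood apart, 13.9 TPM in NRF2 KO CM. Gm49450 measured 0.62, 0.27 and 0.96 TPM against 4.01, 2.56 and 3.40 TPM, fell by 1.46 (SE 0.16, limma adjusted p = 0.048) and stood at 1.148, 0.38 and, in that replicate 3, 182 TPM in NRF2 KO CM. The annotation tags Gm49450 as a readthrough of Tuba1a and Tuba1b, whose models it overlaps, so its reads cannot be told apart from theirs in the overlap. Both genes were below the level tested under CDDO-Me. Among the 49 called genes with a model in the annotation, 12 overlap another protein-coding gene, among them Timp1, which lies inside Syn1 on the opposite strand, and Mmp12, which overlaps Mmp1b.

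Epithelial, lymphocyte, mast cell and basophil markers were low, while neutrophil, erythroid and megakaryocyte markers had higher sums. The 10 epithelial and carcinoma markers, which LL2 cells could have brought, summed to 10.3, 9.43 and 9.95 TPM in KEAP1 KO CM and 5.33, 6.35 and 5.55 TPM in WT CM, and these did not overlap. Cdh1 and Krt19 supplied most of it, at 4.23, 5.19 and 4.52 against 3.06, 4.04 and 3.46 TPM and at 4.08, 3.65 and 2.01 against 1.88, 1.72 and 0.92 TPM, and neither was called. Cdh1 also sits in the list of alternative activation genes, so its level does not mark carcinoma cells alone. Epcam did not exceed 0.020 TPM and was listed at 0 in all 3 KEAP1 KO libraries, and Krt8 did not exceed 1.01 TPM. Lymphocyte markers summed to between 7.502 and 9.75 TPM, mast cell and basophil markers to between 2.23 and 6.00 TPM and neutrophil markers to between 86.1 and 131 TPM over the 6 libraries, with 0 calls. Erythroid and megakaryocyte markers summed to 210.2, 202 and 398 TPM against 281, 273 and 244 TPM, with 0 calls of 4 tested.

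The same CM were also given with CDDO-Me, in 6 other libraries, none of them in the vehicle comparison but numbered in the same way. Whether these shared macrophages or CM batches with the vehicle libraries is not stated in the sources used here. Under CDDO-Me 104 of 12157 tested genes (0.855%) were called between KEAP1 KO and WT CM, and 2181 (17.9%) had an unadjusted p under 0.05. Without the replicate block 0 were called and 797 had such a p. Of the 50 genes called with vehicle 48 were tested under CDDO-Me, where 44 (91.7%) had the same sign, against 7101 of 11741 genes tested in both (60.5%). These counts were 36 of 38 for genes higher with vehicle and 8 of 10 for genes lower. Of them 33 also had an unadjusted p under 0.05 under CDDO-Me. The share over all genes is not a like background for the sign. With vehicle the median absolute log2 difference was 0.093 among all tested genes and 0.58 among called genes. Calls in both treatments were 5 genes, 10% of the 50 and 4.81% of the 104, with Timp1, Cald1 and Tpm2 among those of the same sign and Mmp12 the single gene of opposite sign.

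Timp1 measured 486, 498 and 222 TPM in KEAP1 KO CM with CDDO-Me and 196, 221 and 113 TPM in WT CM with CDDO-Me, a log2 difference of 1.14 (SE 0.069, limma adjusted p = 0.026), beside 1.11 with vehicle. Il1rl1 differed by 1.46 (limma adjusted p = 0.053), Spp1 by 0.83 (limma adjusted p = 0.11) and Cxcl5 by 0.62 (limma adjusted p = 0.068). Stromal markers had a median of 0.36 under CDDO-Me, with 3 called higher of 32 tested. Their summed level was 3386, 4149 and 1198 TPM in KEAP1 KO CM against 2098, 3104 and 1221 TPM in WT CM, so the pair of replicate 3 did not rise. Cell cycle genes had a median of 0.13, with 0 called higher and 1 lower of 34. For MHC class II genes the median was -0.19 with 0 calls of 11 tested, at levels far above those with vehicle: H2-Ab1 stood at 3222 ± 288 TPM in KEAP1 KO CM and 3509 ± 104 TPM in WT CM with CDDO-Me (SD, n = 3).

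**Figure D5:**
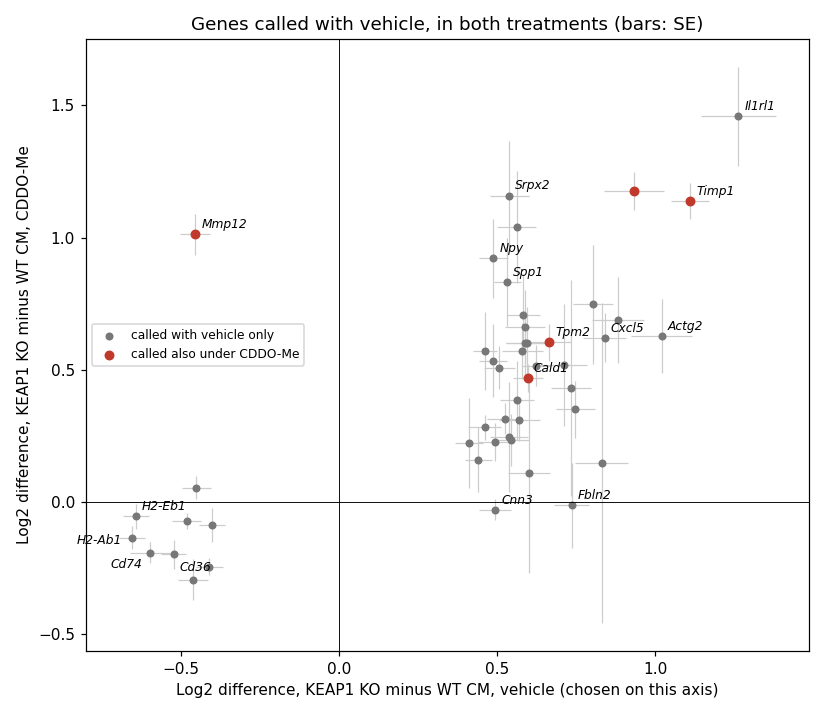
Fitted log2 difference between KEAP1 KO and WT CM with vehicle (x axis, on which the genes were chosen) and with CDDO-Me (y axis) for the 48 genes called with vehicle that were tested in both, with bars for SE and genes also called under CDDO-Me in red. Mmp12 lies in the upper left, at -0.45 with vehicle and 1.01 with CDDO-Me, and Timp1 and Il1rl1 lie at the upper right.

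The test of the difference itself, over the 12 libraries of both treatments, called 3 of 12931 genes (0.0232%), while 1072 (8.29%) had an unadjusted p under 0.05. Of the 50 genes called with vehicle 1, Mmp12, was among the 3, and 12 had an unadjusted p under 0.05. Mmp12 measured 743, 640.4 and 844 TPM in KEAP1 KO CM and 379, 350.4 and 361 TPM in WT CM under CDDO-Me, so that KEAP1 KO libraries were above WT libraries there and below them with vehicle. For H2-Ab1 the difference between treatments was -0.52 on the log2 scale (SE 0.18, limma adjusted p = 0.49) and for Timp1 -0.034 (SE 0.22, limma adjusted p = 0.98), so for these genes a difference between treatments was not shown.

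Set beside the other vehicle groups, the called genes followed more than one order of means, given here without a test. For Ccl2 the means were 67.1 ± 10.4 TPM in media, 215 ± 47.4 in WT CM and 311 ± 76.5 in KEAP1 KO CM (SD, n = 3), with 101, 87.7 and 63.0 TPM in NRF2 KO CM. Il1rl1 had 5.09 ± 2.86 TPM in media, 17.3 ± 12.2 in WT CM and 41.6 ± 19.1 in KEAP1 KO CM, with 6.22, 5.71 and 26.6 TPM in NRF2 KO CM, the last from the replicate 3 that stood apart. Acta2 and Ccn2 were higher in media than in these CM, at 394 ± 36.5 and 167.5 ± 28.3 TPM in media against 225 ± 50.0 and 53.8 ± 14.3 TPM in KEAP1 KO CM. Timp1 in each KEAP1 KO library lay above the 208, 276 and 128 TPM of NRF2 KO CM and above media (210.1 ± 14.0 TPM).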

How the data were processed

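RNA was measured in 24 libraries of 8 groups, 3 per group, and 6 were compared here, assigned by their labels. The authors had poly-A libraries made and sequenced by Novogene, quantified them with kallisto against GRCm39, and tested with limma after TMM scaling. The authors deposited TPM, under 35770 gene names, in a file named for counts, so the depth of each library is not kept (the study gives an average), no interval or floor is given, and count models were not used. One line of values without a gene name (0.0473% to 0.0619% of a library) was left out, 0 columns lacked a sample, and total TPM lay between 999381 and 999527.

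Libraries were scaled by an unweighted TMM (trims of 30% on M and 5% on A). Genes over 1 TPM in 3 or more libraries entered the fit with limma 3.58.1 in R 4.3.3 on log2(scaled TPM + 1), with group and replicate number as terms, eBayes with a trend, two-sided p-values adjusted by Benjamini-Hochberg over all genes tested and a threshold of 0.05. The fit had 2 residual and 3.464 prior degrees of freedom. The code was tested on simulated data. Same-numbered libraries deviated together from their group means (Pearson r across genes 0.15, 0.40 and 0.52 with vehicle, 0.25, 0.50 and 0.61 with CDDO-Me), although with vehicle KEAP1 KO replicate 1 was about as close to WT replicate 2 (0.14) and WT replicate 1 was closer to KEAP1 KO replicate 2 (0.17) than to its own number, and the sources used here do not say what a number shares.

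The comparison and the 24 gene lists were chosen with earlier results of these data known. Named genes are the 15 largest rises and, of up to 15, all 12 falls among called genes with a mean of at least 1 TPM, the 4 members of each list with the smallest p, Keap1, Nfe2l2, Arg1, Cxcl5, Il6 and the leading cell type markers; other genes in the text, called ones included, were named after their values were seen. Alternatives changed the block, scaling, filter, pseudocount, variance model, library weights and libraries fitted. Coordinates are from GENCODE vM39 (GRCm39) and promoters from RefSeq (GRCm38.p6). Figures used matplotlib 3.10.9. Results for a few genes are not reported here.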

Additional observations from a re-analysis of the deposited data

Results flagged for a closer look

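In 3 genes the difference between KEAP1 KO CM and WT CM itself differed between vehicle and CDDO-Me, by an interaction term in limma over 12 libraries with the replicate block (adjusted p = 0.036 for each). For Mmp12, macrophage elastase, the vehicle difference minus the CDDO-Me difference was -1.471 on the log2 scale (SE 0.15), from -0.45 with vehicle to 1.01 with CDDO-Me, and the KEAP1 KO library was below the WT library of its number in 3 of 3 pairs with vehicle and above it in 3 of 3 with CDDO-Me. For Il7r, the IL-7 receptor alpha chain, it was -0.7567 (SE 0.085): Il7r measured 99.0, 86.8 and 125 TPM in KEAP1 KO CM against 111, 103 and 146 TPM in WT CM with vehicle, and 40.1, 35.8 and 55.7 TPM against 30.4, 26.6 and 34.9 TPM with CDDO-Me. For Niban2, an apoptosis regulator, it was -0.5849 (SE 0.063): Niban2 measured 383, 389 and 410.0 TPM against 408, 441 and 466 TPM with vehicle, and 128, 132 and 140.3 TPM against 92.4, 105 and 113 TPM with CDDO-Me. Il7r and Niban2 were not called within either treatment (limma adjusted p = 0.067 and 0.099 with vehicle, 0.073 and 0.060 with CDDO-Me).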

How the results depend on the processing

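The number of called genes depended strongly on the processing. All 50 genes kept their sign wherever they were tested, but this could hardly turn out otherwise. Each had the same direction in all 3 pairs, and changing the variance model or dropping the block leaves the fitted difference as it was. For KEAP1 KO/vehicle against WT/vehicle (50 genes: 38 higher, 12 lower), 0 were called without the replicate block (790 at an unadjusted p under 0.05), without a filter (2487), without a variance trend (2042), with all 24 libraries (724) and with the 12 vehicle libraries (588). The count was 90 with RLE scaling, 188 without scaling, 251 with TPM above 5 (which left out Cr2 and Gm49450), 109 with robust empirical Bayes and 238 with array weights, each including all of the 50 that were tested. Pseudocounts of 0.1 and 0.5 gave 44 and 49. Leaving out libraries gave 0 to 124: 0 without either library, or both, of replicate 1 or 2, except 1 without WT replicate 1, and 124, 100 and 75 without the replicate 3 pair, WT replicate 3 and KEAP1 KO replicate 3, which retained 45, 42 and 35 of the 50. A library left alone for its number adds nothing to the block fit. Under CDDO-Me (104) the count was 0 without the block, a filter or a trend, 38 with 24 libraries, 167 with array weights, 70 to 105 otherwise and 0 to 307 with libraries left out, among them 18, 8 and 162 without the pair of replicate 1, 2 and 3. The 3 genes with a difference between treatments became 0 without the block, a filter or a trend and with 24 libraries, and 0 to 3 with libraries left out. Keap1 alone changed sign among named genes, at -0.013 without replicate 2, -0.0086 without WT replicate 2 and -0.015 without KEAP1 KO replicate 2, and lay at most at 0.045 without any other library. The causes were not tested, and the depth of each library, which TPM do not keep, limits what can be said of low genes such as Cr2.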
